A study of Mus musculus with 4 samples.

Results

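The lower skin of old mice was compared between the resting phase of the hair cycle (telogen) and the growth phase (anagen), in dermal white adipose tissue (dWAT), the fat layer around the lower ends of hair follicles (HFs). The comparison uses OTD (old mice, telogen, dWAT) and OAD (old mice, anagen, dWAT), with 1 RNA sequencing library each, and YTD and YAD from young mice serve as a second pair of libraries. A gene entered when its FPKM (fragments per kilobase of gene length and per 1000000 mapped fragments) was 1 or more in OTD or OAD, which kept 13847 of 22913 genes. At the edge of this minimum, Zfp11 (0.999 in OTD) was just outside and Gsap (1.0001 in OTD) just inside. The change of a gene is log2(FPKM + 1) in OAD minus that in OTD, so that the change of a gene with low FPKM comes out too small. A gene is said to have risen or fallen when its change was 1 or more in size, and values are given without such a verb for all others. A gene that reached the minimum through a single library had to lie on that library's side, so counts over list members that passed are descriptions.

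All mice were C57BL/6, with no transgene or mutation named, and no agent other than depilation was named. By the titles and the design text, the old mice were 18 months and the young mice 2 months old. The age tags of YTD (18 months) and OAD (2 months) contradict the titles, and the titles were followed. Anagen was induced by depilation, in which hairs are plucked with wax, so hair cycle phase, the time after plucking and the response to plucking cannot be told apart between OAD and OTD. The study removed the subcutaneous fat and the muscle sheet of the skin (panniculus carnosus) and scraped dWAT from the bottom of the HFs, and each library holds the pooled tissue of several mice. With 1 library on each side there is no spread between replicates, no test and no p-value, and each change is a difference between single libraries. In such bulk tissue, fewer cells of a type and less RNA per cell cannot be told apart. Depth was estimated at roughly 21500000 fragments in OTD and 23800000 in OAD. Folds are given as "at least" where the lower library was under the value of 3 fragments, and this floor covers counting error only.

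In anagen the HF grows down into dWAT. Its bulb holds the dermal papilla, which sends signals, the dividing matrix, which makes the hair shaft and the inner root sheath, and melanocytes, which pass pigment to the shaft. Wnt ligands and sonic hedgehog promote growth of the follicle, while BMP signals from the surrounding fat and fibroblasts are known to hold its stem cells at rest. In telogen the follicle is short, lies above the fat and makes no hair.

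Of the 13847 genes, 2854 were higher in OAD (20.6%) and 2759 were lower (19.9%), and the median change of all genes was 0.05. The sides were nearly equal in number and unequal in size. Rises reached 10.28, and 197 genes rose by 5 or more, against 1 gene that fell by 5 or more. In the plot of OAD against OTD, the genes of the hair shaft lie far above the diagonal and the fallen genes lie in a band close below it. Chromosome MT and all symbols starting with Krt or Krtap were then dropped, and the other genes were rescaled to a common sum of 1000000. Of the 13736 genes that remained, 3362 were higher in OAD (24.5%) and 2769 were lower (20.2%), and the median change moved to 0.15. Between the scalings, 2763 genes rose under both, 2600 fell under both and none changed to the opposite side. Scaling all genes to TPM moved the median to 0.58 and the counts to 4886 higher and 1502 lower, so that 76.5% of the called genes were higher, against 50.8% as deposited. Just inside the threshold was Rbak (2.01 FPKM in OTD and 5.02 in OAD) and just outside was Sh3d19 (5.88 and 12.8). Genes are described by 44 lists of cell type markers and pathways, and each list's counts are to be read against the 20.6% and 19.9% of all genes that rose and fell.

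**Figure D1:**
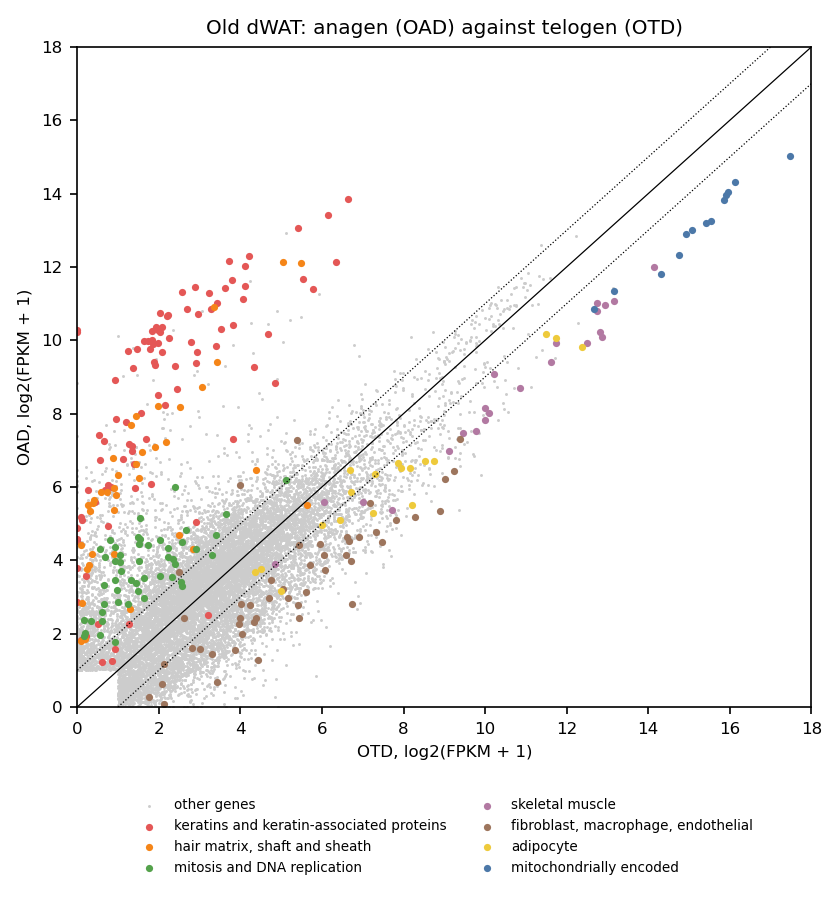
Level of each gene in OAD (vertical) against OTD (horizontal), both as log2(FPKM + 1), in 1 library each. The solid line marks equal levels and the dotted lines a change of 1. Most keratins and keratin-associated proteins (red) lie far above the lines, and most mitosis and replication genes (green) lie above them. Mitochondrially encoded genes (blue) and most muscle genes (purple) and fibroblast, macrophage and endothelial genes (brown) lie below.

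The libraries differed in make-up. Of the summed FPKM, mitochondrially encoded genes took 52.7% in OTD and 18.3% in OAD. Genes with a symbol starting with Krt, most of them keratins and keratin-associated proteins, held 0.0698% and 15.1%. A list of skeletal muscle genes held 6.78% and 2.38%. The part of these shares in the changes of other genes was not tested beyond the rescaling. Fat was present in both libraries, with Adipoq at 427 FPKM in OTD and 103 in OAD, and so was skeletal muscle, with Acta1 at 17991 and 4106.

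**Figure D2:**
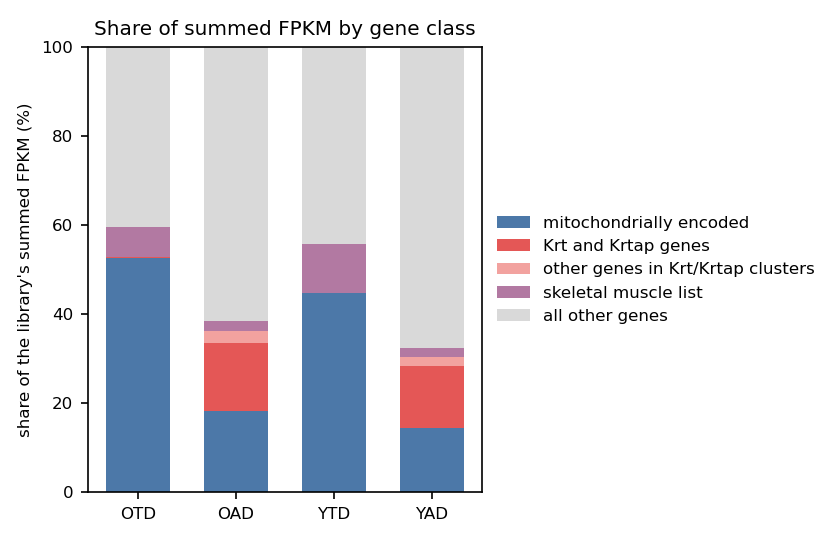
Share of each library's summed FPKM (vertical axis, percent) held by 5 classes of genes, with 1 bar per library. The mitochondrial share falls from 52.7% in OTD to 18.3% in OAD while the Krt and Krtap share goes from 0.0698% to 15.1%, and the young pair shows the same order.

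The keratin-associated proteins, which crosslink keratin filaments in the hair shaft, held the largest rises. Of 56 genes 55 passed and all of these rose, where 20.6% of all genes rose, with a median change of 7.54 beside 0.05 for all genes. Krtap8-1, the most abundant, stood at 98.5 FPKM in OTD and 14868 in OAD (change 7.22), and Krtap22-2 at 69.4 and 11006. Krtap19-4 was listed at 0 in OTD and stood at 1242.5 in OAD (change 10.28), and Krtap19-9a was likewise at 0 and 1195. The smallest rise was that of Krtap5-3, from 0.153 to 2.79 (change 1.72). Members of this family are near copies of each other, so that reads can be split between them, and single members are less certain than the family.

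Keratins form the filaments themselves, and of 54 genes 40 passed, of which 35 rose and none fell (median 5.61). Those of the hair cortex changed most. Krt83 went from 3.09 to 1723.5 FPKM (change 8.72), Krt34 from 3.66 to 1662 and Krt86 from 3.63 to 1607. Keratins of the inner root sheath were the most abundant, and Krt71 went from 79.8 to 4503, Krt25 from 53.8 to 2677 and Krt27 from 45.5 to 3283. Keratins of the basal epithelium rose less in size, such as Krt14 (3.99) and Krt5 (4.94). The 5 members that did not rise lay between -0.71 for Krt18, a keratin of simple epithelia, and just under the threshold for Krt10 of the upper epidermis (1.39 and 3.78).

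Most of the 113 genes with a symbol starting with Krt lie in 4 clusters on GRCm38, on chromosome 11 from 99232761 to 100269871, on chromosome 15 from 101349571 to 102032026, on chromosome 16 from 88610709 to 89571183 and on chromosome 7 from 142174535 to 142304503. These hold 50, 27, 25 and 5 of the 113, respectively. Inside them, 56 of 59, 18 of 20, 30 of 30 and 7 of 7 genes that passed rose. Genes with other symbols lay between the family members, and those that passed, 15, 1, 6 and 2, all rose as well. Gm11937 in the chromosome 11 cluster went from 0.984 to 1105 FPKM, and Gm11555 from 0 to 455. Of the 26 genes that rose by 8 or more, 22 were Krt or Krtap genes, the other 4 lay in these clusters and 0 lay elsewhere. The rescaling by symbol leaves such neighbours in. Dropping every gene in the clusters, an alternative added after the values were seen, gave 3525 higher and 2659 lower.

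Promoters were read from the RefSeq table of GRCm38.p6, which gives 250 bases before to 50 after each gene's start and held 50 of the 55 keratin-associated protein genes. The TATA box, TATAAA on either strand, stood in 82.0% of their promoters and in 61.5% of the 26 keratin promoters found. It was held by 13.6% of all 32851 promoters and by 8.22% of those of genes that passed. The 60-base windows of 6 strongly changed members are given to show the match, in capitals. All windows run 5′ to 3′ on the strand of the gene, with GRCm38 coordinates.
Krtap9-3, chr11:99598107-99598166, minus strand: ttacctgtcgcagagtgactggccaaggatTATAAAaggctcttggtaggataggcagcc
Krtap3-1, chr11:99566635-99566694, minus strand: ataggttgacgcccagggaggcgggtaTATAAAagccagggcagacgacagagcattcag
Krtap2-4, chr11:99614847-99614906, minus strand: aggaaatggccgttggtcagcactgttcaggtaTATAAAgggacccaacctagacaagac
Krt34, chr11:100041555-100041614, minus strand: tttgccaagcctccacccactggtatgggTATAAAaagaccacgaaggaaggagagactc
Krt33b, chr11:100029883-100029942, minus strand: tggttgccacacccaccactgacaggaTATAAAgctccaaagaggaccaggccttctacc
Krt31, chr11:100050552-100050611, minus strand: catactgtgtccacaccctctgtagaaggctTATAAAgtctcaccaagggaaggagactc
The match began 30, 37, 27, 31, 47 and 29 bases before the start, in that order. It describes these letters and says nothing of what drives the genes.

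Outside the clusters, the other proteins of the shaft and sheath rose by a like amount, 17 of 18 with a median of 5.24 (5.85 after rescaling). Tchh, trichohyalin of the inner root sheath, went from 32.2 to 4477 FPKM, and S100a3, a calcium-binding protein of the hair cuticle, from 43.7 to 4415. Padi3, which converts arginine to citrulline in trichohyalin, went from 2.94 to 292, and Tgm3, a transglutaminase that crosslinks it, from 0.486 to 57.3. Gprc5d had the largest rise as deposited of a symbol outside the families and clusters, from 3.26 to 823 (change 7.59), ahead of Psors1c2 (9.21 and 1906). After rescaling Gm10272, listed at 0 in OTD and at 165 in OAD, was ahead of Gprc5d (8.26 against 7.86). Gm10272 lies on chromosome 10 near other Gm genes that rose, such as Gm10024 (5.66) and Gm10100 (5.65). That run is not among the clusters defined above. Of the 18 shaft and sheath list members, Selenbp1 had no rise, at 48.3 and 44.4, although it stood at 40.6 in YTD and 189 in YAD.

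Transcription factors and signals of the hair matrix were mostly low in OTD and high in OAD. All 20 of 20 rose (median 4.40, and higher after rescaling). Dlx3 stood at 1.5 FPKM in OTD and 207 in OAD, Msx2 at 0.83 and 109, and Hoxc13, whose loss gives hairless mice, at 2.0 and 122. Foxn1, the gene lost in nude mice, went from 0.19 to 44.4 (change 5.25). Even the members with the smallest rises, Trps1 (1.38) and Runx1 (1.46), passed the threshold.

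The melanocyte list rose in 13 of 15 members (median 2.73, rescaled 3.38). The enzymes and the matrix protein of the pigment granule rose most, with Dct at 1.51 in OTD and 101 in OAD, Pmel at 1.6 and 90.5, and Tyrp1 at 0.917 and 63.7. Mlana, a melanosome protein, was the most abundant at 7.86 and 173. The lineage factor Mitf rose by less (1.27), and Sox10, shared with Schwann cells, stood at 8.55 and 5.02.

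Epidermal genes rose in 14 of 17 members (median 4.47). Asprv1, a protease of the cornified layer, went from 2.27 to 305 FPKM, Ivl (involucrin) from 0.738 to 136 and Sprr1a from 36.2 to 1504. The desmosome protein Dsp went from 3.28 to 261. Lor (loricrin), a defining protein of the outermost epidermis, stood at only 1.19 and 2.92, and Lce1a1 of the cornified envelope at 0.512 and 1.14. Several list members are also made in the HF.

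Genes of HF stem cells were split, with 7 that rose and 3 that fell among 12, beside 20.6% and 19.9% of all genes. Lhx2, a factor of the bulge and hair germ, went from 0.233 to 19 FPKM, Sox9 from 1.37 to 11.8, and Lgr5, a receptor for R-spondins, from 0.846 to 6.33. Cd34, which also marks endothelial cells and fat progenitors, fell from 99.9 to 18.6, and Nfatc1 from 11.3 to 2.71. The dermal papilla list had 9 rises among 14, and its 2 falls were a smaller share than the 19.9% of all genes. Its rises were led by Wif1 (0.323 and 21.7 FPKM), Notum (0.0833 and 12.6) and Rspo4, an R-spondin (0.0261 and 10.9). Corin, a protease of the dermal papilla, went from 0.0924 to 6.75. The falls were those of Hey1 (-1.14) and the growth factor gene Fgf7 (-1.59).

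Genes of cell division rose together. All 25 of 25 mitosis genes rose (median 2.67, rescaled 3.03), and so did 21 of 25 DNA replication genes (median 1.57), with none that fell. Mki67, a marker of cycling cells, stood at 0.474 FPKM in OTD and 18.8 in OAD, Ube2c at 4.3 and 62.5, and Birc5 at 1.91 and 34.3. Uhrf1, which keeps DNA methylation through replication, had the largest replication change (3.73, from 0.755 to 22.3). Pcna, the sliding clamp and the most abundant member, rose by less, from 33.7 to 71.5 (change 1.07). The mitosis genes spanned 1.74 to 3.75 and the replication genes 0.73 to 3.73.

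Promoters of 21 members were found for each of these lists. The cell cycle homology region TTTGAA, an element of genes of late cell cycle phases, stood on either strand in 77.3% of the 22 mitosis promoters, beside 17.9% of all promoters and 12.4% of those of genes that passed. The CCAAT box, CCAAT on either strand, stood in 86.4%, beside 37.4% and 37.1%. Both were in 16 promoters, and in 1 of these the matches overlapped. The E2F site TTTNNCGC stood in 45.8% of the 24 replication promoters, beside 5.17% of all and 7.88% of those of genes that passed. The windows show, in capitals, the cell cycle homology region of Mki67, Top2a and Cdk1 and the E2F site of Uhrf1, Mcm5 and Cdc6, in the last as its reverse complement. In each window 1 match is marked, and those of Mki67 and Mcm5 hold a further match that is not.
Mki67, chr7:135716463-135716522, minus strand: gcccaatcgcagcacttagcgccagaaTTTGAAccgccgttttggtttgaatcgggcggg
Top2a, chr11:99024336-99024395, minus strand: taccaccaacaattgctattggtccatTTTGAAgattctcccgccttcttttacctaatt
Cdk1, chr10:69352951-69353010, minus strand: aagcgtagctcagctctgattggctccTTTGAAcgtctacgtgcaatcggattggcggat
Uhrf1, chr17:56304102-56304161, plus strand: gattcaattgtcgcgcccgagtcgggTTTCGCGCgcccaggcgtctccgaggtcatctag
Mcm5, chr8:75109330-75109389, plus strand: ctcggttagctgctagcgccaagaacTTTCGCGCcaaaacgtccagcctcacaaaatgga
Cdc6, chr11:98907987-98908046, plus strand: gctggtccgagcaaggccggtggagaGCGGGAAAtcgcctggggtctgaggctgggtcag
These matches are letters in a window of fixed length, and no binding was measured.

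Of 19 Wnt ligands 12 passed, and 9 of these rose (median 2.53), with none that fell. Wnt3 stood at 0.0725 FPKM in OTD and 16.8 in OAD, at least 129-fold higher. Wnt10a went from 0.288 to 17 and Wnt10b from 0.219 to 13.6. Wnt11 and Wnt5a, known for signalling apart from beta-catenin, were the most abundant ligands in OAD at 61.8 and 27.1. Wnt9a, Wnt2 and Wnt5b did not rise and lay between -0.51 and -0.01.

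Among 10 targets and feedback genes of Wnt signalling, 8 rose. Lef1, the factor that pairs with beta-catenin in the matrix, went from 0.333 to 49.1 FPKM (change 5.23), and the feedback inhibitor Nkd2 from 1.2 to 39.2. Axin2 went from 4.06 to 19.3. Twist1, also expressed in fibroblasts, fell from 18.6 to 5.74. Secreted antagonists changed in both directions, beside 20.6% and 19.9% of all genes, with 2 that rose (Wif1 and Notum, given above) and 3 that fell among 9 of 13 that passed. The falls were those of the secreted frizzled-related proteins Sfrp2 (8.76 and 1.02), Sfrp4 (9.3 and 1.17) and Sfrp5 (17.3 and 3.37). Dkk3 stood at 5.27 and 6.17, and Dkk1 and Dkk2 did not reach the minimum.

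Hedgehog genes rose in 8 of 12. The ligand Shh stood at 0.172 FPKM in OTD and 12.6 in OAD. Its receptor and target genes went in the same direction, with Gli1 at 1.86 and 31.3 and Ptch1 at 5.55 and 16. The co-receptors Gas1 (-1.14) and Cdon (-1.20) fell.

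BMP ligands and antagonists changed in both directions, somewhat more often than all genes (20.6% higher and 19.9% lower), with 5 rises and 4 falls among 16 (median 0.11, which changed sign under some scalings). The ligands that rose were Bmp7 (1.04 and 29.1 FPKM), Bmp8a (0.181 and 9.93), Bmp2 (1.7 and 15.5) and Bmp4 (9.92 and 25.6), beside the decoy receptor Bambi (2.93). The falls included the secreted antagonist Chrdl1 (-2.06), the follistatin-like protein Fstl1 (-1.80) and the ligand Gdf10 (-1.31). Nog (noggin) stood at 2.09 and 3.16. Of the genes that respond to BMP, the inhibitory Smad6 (2.09) and Smad7 (1.76) rose, whereas Id1 stood at 77.6 and 109 and Id3 at 136 and 144.

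FGF genes also changed in both directions, beside 20.6% and 19.9% of all genes, with 4 rises and 5 falls among the 15 of 27 that passed. Fgf22 was listed at 0 in OTD and stood at 30.3 FPKM in OAD, and Fgf5, known for ending anagen, went from 0.506 to 10.8. The receptors Fgfr2 (2.29 and 40.6) and Fgfr3 (3.08 and 46) rose, while Fgfr1 stood at 29.9 and 19.8. The largest falls were those of Fgf13 (22 and 3.12) and Fgf7 (8.4 and 2.13). In the Notch list the receptor Notch1 rose (2.66) and Mfng, which adds sugars to Notch, fell (-2.37). That list had 6 rises and 3 falls among 15, and the share that fell was that of all genes (19.9%).

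**Figure D3:**
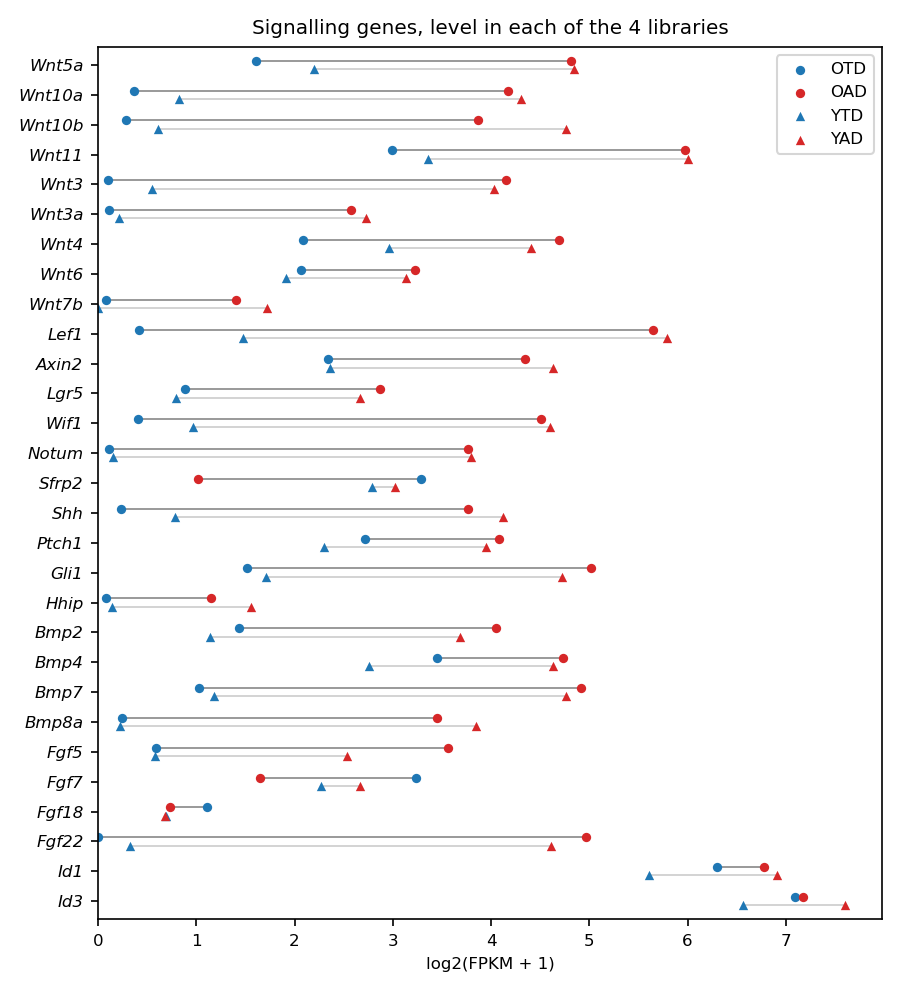
Level of Wnt, hedgehog, BMP and FGF genes in each of the 4 libraries, as log2(FPKM + 1) on the horizontal axis. Circles are the old and triangles the young libraries, blue for telogen and red for anagen, and a line joins the libraries of an age. Most Wnt ligands, Lef1, Shh and Bmp7 lie far to the right in anagen, and Sfrp2 and Fgf7 lie lower in OAD than in OTD while the young libraries are close to each other.

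Fat cell genes were lower, where 19.9% of all genes fell. Of 18 adipocyte genes, 13 fell, none rose and all 18 lay below 0 as deposited (median -1.40, rescaled -1.28, TPM -0.787). Car3, an abundant carbonic anhydrase of fat and muscle, went from 5322 to 909 FPKM, Cfd (adipsin) from 3401 to 1070 and Fabp4, a fatty acid carrier, from 2879.7 to 1155. The fatty acid transporter Cd36, also made by endothelial cells and macrophages, had the largest change (-2.71), and Adipoq (adiponectin) changed by -2.04. After rescaling, 12 of the 18 fell. The adipogenic factor Pparg went from 31 to 7.9, whereas Cebpa stood at 103 and 87.8 and Lep (leptin) at 19.4 and 11.9.

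Of the enzymes of fatty acid synthesis about as large a share changed as of all genes (20.6% higher and 19.9% lower), with 3 rises and 3 falls among 15 (median -0.14, which changed sign under some scalings). The desaturases went opposite ways, Scd1 from 779 to 264 FPKM and Scd2 from 33.4 to 148. The elongase Elovl6 rose (1.68), and Fasn (fatty acid synthase) stood at 52.8 and 67.2. Cholesterol synthesis rose in 20 of 23 genes, all 23 lying above 0 as deposited (median 2.14, rescaled 2.31). Sqle (squalene epoxidase) went from 2.66 to 49.6 FPKM, Lss (lanosterol synthase) from 1.57 to 19.3 and Hmgcs1, an early enzyme of the pathway, from 20.4 to 108. Fdps was the most abundant at 21.4 and 165. The sterol regulatory element TCACNCCAC was found on either strand in 1 of 20 promoters of this list (5%, beside 1.24% of all), that of Hmgcs1, and it is shown in capitals.
Hmgcs1, chr13:119690189-119690248, plus strand: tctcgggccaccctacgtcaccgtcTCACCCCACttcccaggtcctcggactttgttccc

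Skeletal muscle genes fell in 20 of 22 (median -2.09, rescaled -1.97). Acta1, the actin of skeletal muscle, went from 17991 to 4106 FPKM, Tnnc2 (fast troponin C) from 9184 to 2139.5 and Ckm (muscle creatine kinase) from 7920.4 to 1988. Myh2 and Ttn did not pass the threshold (-0.48 and -0.96). The muscle layer beneath had been removed in dissection, and its part in other changes was not tested beyond an alternative without the list.

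Genes for oxidative phosphorylation were lower in both genomes, and more so in the mitochondrial genome. All 13 mitochondrially encoded genes fell, by changes of -2.51 (mt-Nd2) to -1.81 (mt-Co2). The 79 nuclear genes had a median of -0.90, with 32 that fell and none that rose (22 and 1 after rescaling, TPM median -0.285). By complex, the median was -0.92 in complex I, -1.47 in complex II, -0.62 in complex III, -0.75 in complex IV and -0.88 in ATP synthase. Within complex IV the subunit isoforms of striated muscle and brown fat fell most, Cox8b from 2234 to 425 FPKM, Cox7a1 from 757 to 148 and Cox6a2 from 1407 to 280.0. Their widely expressed counterparts stood higher in OAD without passing the threshold, Cox8a at 504 and 672 and Cox6a1 at 441 and 826. Muscle genes fell in the same libraries, and their part in this was not tested.

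Cells of vessels, nerves and connective tissue had lower marker levels. Endothelial genes fell in 16 of 16, from -1.20 (Flt1) to -2.49 (Emcn). Pecam1 stood at 119 FPKM in OTD and 23.9 in OAD, and Cldn5, of endothelial tight junctions, at 101 and 22.2. Smooth muscle and pericyte genes fell in 10 of 12, with Rgs5 at 80.7 and 16.1 and Acta2 at 231 and 59.3. Schwann cell genes fell in 8 of 10, and those of peripheral myelin went furthest, such as Pmp22 from 268 to 36.3 and Mbp from 208 to 28.1. Genes of the HF took a larger share of OAD, and their part in these falls was not tested. After rescaling without Krt, Krtap and mitochondrial genes, 16 endothelial, 10 smooth muscle and 8 Schwann cell genes fell.

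Fibroblast and fat progenitor genes had the lowest median of all lists (-2.50, rescaled -2.41), with 14 falls among 16 and 1 rise. The small proteoglycans Lum (lumican) went from 105 to 5.96 FPKM and Dcn (decorin) from 599 to 85.8. Pi16, a marker of fascial progenitors, went from 42.1 to 4.33. The rise was that of Dpp4 (4.64 and 11.8), which is also made outside fibroblasts. The fibrillar collagen genes fell with them, Col1a2 from 177 to 21.7, Col3a1 from 226 to 33.5 and Col1a1 from 94.5 to 16.5. Of 44 collagen genes 26 passed, 10 fell and 5 rose (median -0.32, which changed sign under some scalings). The share that rose was near the 20.6% of all genes. The largest rise was that of Col17a1 of basal keratinocytes (0.583 and 11.2). Of 23 matrix metalloproteinases 13 passed, 9 fell and none rose, with Mmp2 at 56.2 and 9.71 and Mmp3 at 18.6 and 0.681.

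Markers of macrophages and mast cells were lower. Macrophage genes fell in 13 of 16 (median -2.05), with Lyz2 (lysozyme) at 472 FPKM in OTD and 39.5 in OAD, Trem2 at 20.4 and 1.41 and C1qb, a complement subunit, at 103 and 14.7. Gpnmb, which melanocytes also make, was among the 2 that rose (1.90), and the other rose by more (2.06). All 6 mast cell genes that passed fell, such as the protease gene Mcpt4 (45.1 and 5.66). Of 10 T cell and 8 B and plasma cell markers, only Cd2, Cd79b and Jchain reached the minimum in OTD or OAD, with changes between -0.88 and -0.72. The neutrophil list had 4 of 12 genes past the minimum and none past the threshold, and S100a8, which keratinocytes also make, stood at 123 and 129.

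Of 38 chemokine genes 24 passed, and 18 of these fell (median -1.72). Ccl8 was the most abundant at 269.6 FPKM in OTD and 74.5 in OAD. The monocyte attractants Ccl2 (15.6 and 0.247) and Ccl7 (28.5 and 0.683) changed most, and Ccl2 was at least 55.3-fold lower. Cxcl14, known in epithelium, went the other way, from 17.2 to 173. Of 33 interleukin genes 11 passed, of which 8 fell and 1 rose (by 1.07), and after rescaling 7 fell and 1 rose. Il6 stood at 6.19 and 0.047, Il33 at 9.37 and 0.739 and Il1b at 3.37 and 0.281. In the TNF and NF-kappa B list 8 of 17 fell and all 17 lay below 0 as deposited, among them Icam1 (-1.74) and Tnfaip6 (-2.09).

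Interferon-stimulated genes fell in 16 of 18 (median -1.86, rescaled -2.06), and none rose. Bst2, which tethers virus particles to the cell surface, went from 75.3 to 16.3 FPKM, Ifit3 from 22.1 to 3.35 and Rtp4 from 14.4 to 1.27. Stat2, a subunit of the interferon-activated factor itself, stood at 5.83 and 5.0. A core of the interferon-stimulated response element, TTCNNTTTC on either strand, stood in 66.7% of the 15 promoters found for 14 members, beside 8.56% of all and 7.13% of those of genes that passed. It is shown in capitals for Ifit1, Ifit3 and Bst2, in the last as its reverse complement, since they are among the members with the largest falls. In each window 1 match is marked, and those of Ifit1 and Bst2 hold further matches that are not.
Ifit1, chr19:34640755-34640814, plus strand: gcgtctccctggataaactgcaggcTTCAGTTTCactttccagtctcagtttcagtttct
Ifit3, chr19:34583349-34583408, plus strand: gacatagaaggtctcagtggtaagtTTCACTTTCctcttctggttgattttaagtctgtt
Bst2, chr8:71537568-71537627, minus strand: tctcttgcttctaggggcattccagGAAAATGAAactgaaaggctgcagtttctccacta

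Immediate early genes, which respond within minutes to growth signals, stress and tissue handling, were spread from -3.97 to 3.24. Of 27, 13 fell and 1 rose, Egr3 (4.54 and 51.4 FPKM). Fos went from 131 to 18.5, Fosb from 22.5 to 0.503 and Dusp1 from 147.5 to 24.7, while Junb stood at 119 and 218. Their response to dissection was not tested. The cyclic AMP response element TGACGTCA, a palindrome, stood in 10.7% of the 28 promoters of this list, beside 1.79% of all and 2.84% of those of genes that passed, and it is shown in capitals for Dusp1 and Btg2.
Dusp1, chr17:26508582-26508641, minus strand: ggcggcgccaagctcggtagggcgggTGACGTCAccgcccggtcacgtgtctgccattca
Btg2, chr1:134079288-134079347, minus strand: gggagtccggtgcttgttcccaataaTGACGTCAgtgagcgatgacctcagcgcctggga

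Clock genes fell in 8 of 15 (median -1.04, TPM -0.501). The outputs driven by the BMAL1 and CLOCK pair changed most, Dbp from 82.8 to 7.62 FPKM, Nr1d1 from 43.9 to 7.33 and Nr1d2 from 38.6 to 7.06. Arntl, which encodes BMAL1, was the list's rise (1.15 and 5.65). The hour at which the mice were sampled was not used here, so time of day and phase cannot be told apart.

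Among the remaining lists, Ptgds, the synthase of prostaglandin D2, stood out from its pathway, with 2.84 FPKM in OTD and 136 in OAD, while 6 of 13 prostaglandin genes fell, such as the cyclooxygenase Ptgs1 (-2.10) and the receptor Ptger3 (-2.05). The metallothionein Mt4, of stratified epithelium, went from 28.8 to 1787, Mt2 from 291 to 1080.5 and Mt3 from 15.9 down to 1.48. Of 12 heat shock genes a smaller share changed than of all genes (20.6% higher and 19.9% lower). There were 2 rises (Hspa1b 1.43, Hsp90aa1 1.29) and 1 fall, the small chaperone Cryab of muscle (-1.78). Cytosolic ribosomal protein genes were shifted by little and together, 73 of 79 lying above 0 with a median of 0.42 (0.55 after rescaling), and 1 passed the threshold upward, Rpl41 (1.21). The paralogs Rpl3l, known from muscle, and Rpl39l fell, from 209.9 to 54.7 and from 22.2 to 4.81 FPKM.

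**Figure D4:**
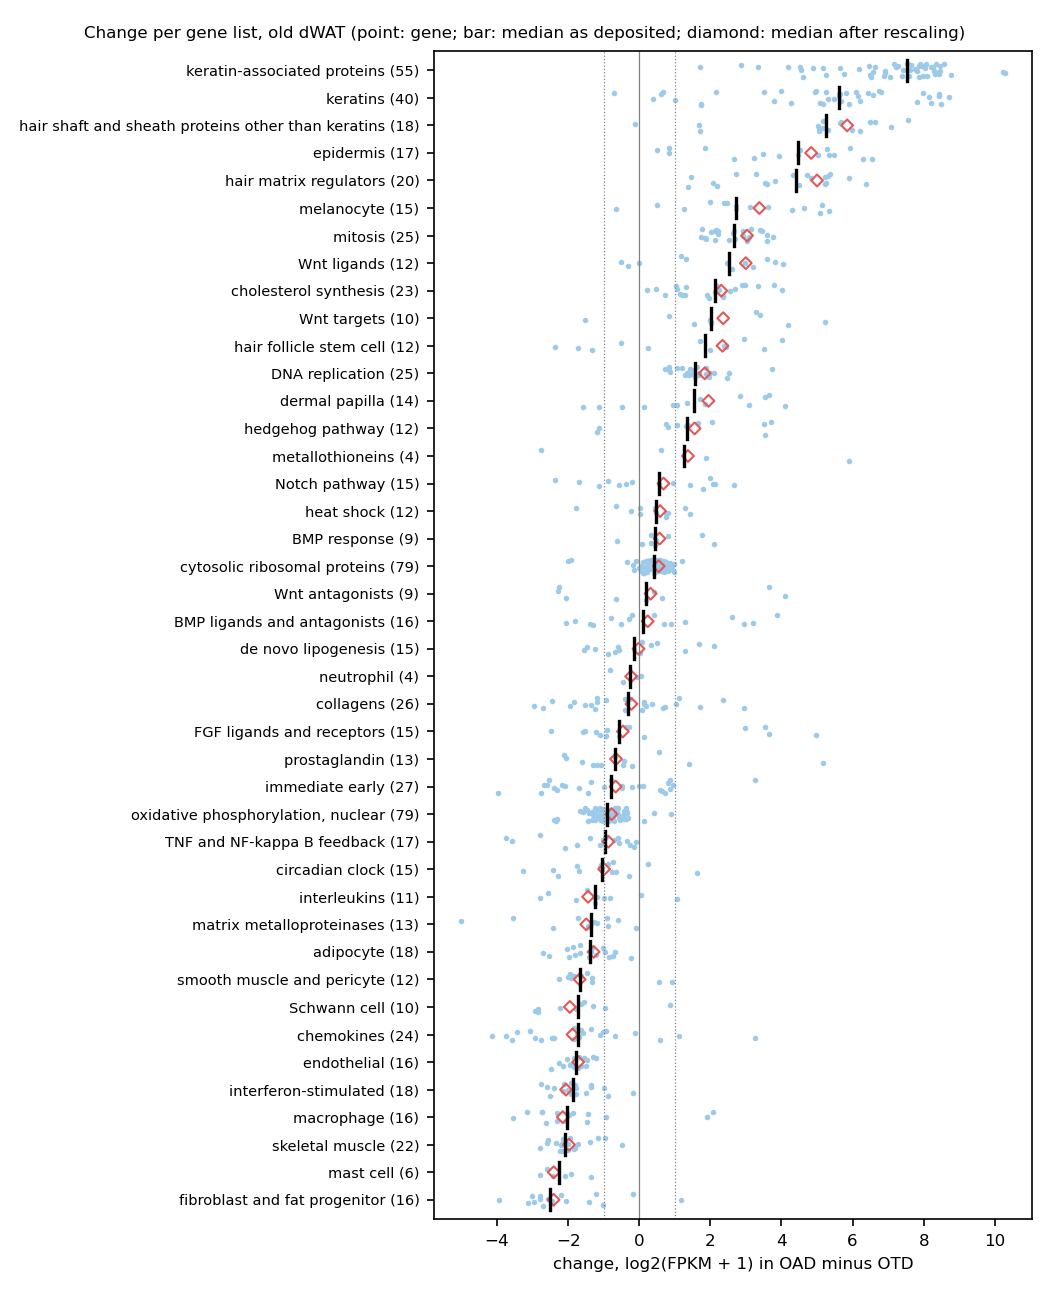
Change of every member that passed (points) in the lists with 4 or more such members, as log2(FPKM + 1) in OAD minus OTD on the horizontal axis, with the number of members in parentheses. Black bars are medians as deposited and red diamonds medians after dropping mitochondrial, Krt and Krtap genes and rescaling. Lists of the HF lie at the top, from 7.54 for keratin-associated proteins, and connective tissue, mast cell, muscle and macrophage lists at the bottom, to -2.50 for fibroblasts and fat progenitors.

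Mmp12, the elastase of macrophages, fell from 56.7 FPKM in OTD to 0.795 in OAD (change -5.01), the largest fall and the only fall beyond 5 as deposited (3 genes fell by more than 5 after rescaling). Among the next were Pon1, a paraoxonase (27.9 and 0.213), the leukocyte antigen Cd52 (72.7 and 2.16), Ctss, the cathepsin of antigen-presenting cells (116 and 5.32), and Tyrobp, an adaptor of myeloid receptors (121 and 6.14). Cyp2e1, a cytochrome P450 that fat and liver express, was the most abundant of the group at 652 and 40.3. Lum and Ccl7, given above, also belong here.

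The young pair, YAD against YTD, shares no library with the old pair, and both used the same tissue, way of depilation and processing. The study reported that old mice took longer than young mice to enter anagen after depilation. The time after plucking can therefore differ between OAD and YAD, and its part in the differences between the pairs was not tested. Across the 13847 genes the changes of the pairs had a Pearson correlation of 0.928, given as a description since genes are not independent. Of the 2854 genes that rose in old mice, 80.5% rose and 99.1% lay above 0 in young mice, and of the 2759 that fell, 75.0% fell and 98.3% lay below 0. Of all 13847 genes, 2747 rose and 2850 fell in the young pair. The hair lists had higher median changes in old mice. These were 7.54 against 6.40 for keratin-associated proteins, 5.61 against 4.69 for keratins and 4.40 against 3.86 for matrix regulators. The summed FPKM of matrix regulators was lower in OTD than in YTD (45.1 against 77.3) and in OAD than in YAD (1101.5 against 1160). That of keratins was lower in OTD than in YTD (370 against 618) and higher in OAD than in YAD (30001 against 25322). Keratin-associated proteins were likewise lower in OTD (424 against 790) and higher in OAD (93282 against 71035). Melanocyte genes had the lower median change in old mice (2.73 against 3.64), with the change of 14 of 15 members lower in old. Muscle genes had the smaller fall in old mice (-2.09 against -3.17), as had nuclear oxidative phosphorylation genes (-0.90 against -1.48). Fibroblast and fat progenitor genes had the lower median in old mice (-2.50 against -1.19), and the change of each of the 16 members was lower in the old than in the young pair. Immediate early genes were lower in OAD than in OTD at the median (-0.78) and higher in YAD than in YTD (0.39), with Junb at 19.5 in YTD and 159.9 in YAD and Egr1 at 71 and 50.6 in the old against 7.25 and 36.7 in the young pair. All of these comparisons are as deposited. The rescaling moved Hoxc13 from 5.36 to 5.69 in old and from 4.70 to 5.24 in young mice. Acta1 moved from -2.13 to -2.01 and from -3.23 to -2.77, and Dcn from -2.79 to -2.67 and from -1.10 to -0.63. The gap narrowed for Hoxc13 and Acta1 and widened for Dcn. The size of the gaps thus depends on the scaling, and none of these differences between the pairs can be tested.

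**Figure D5:**
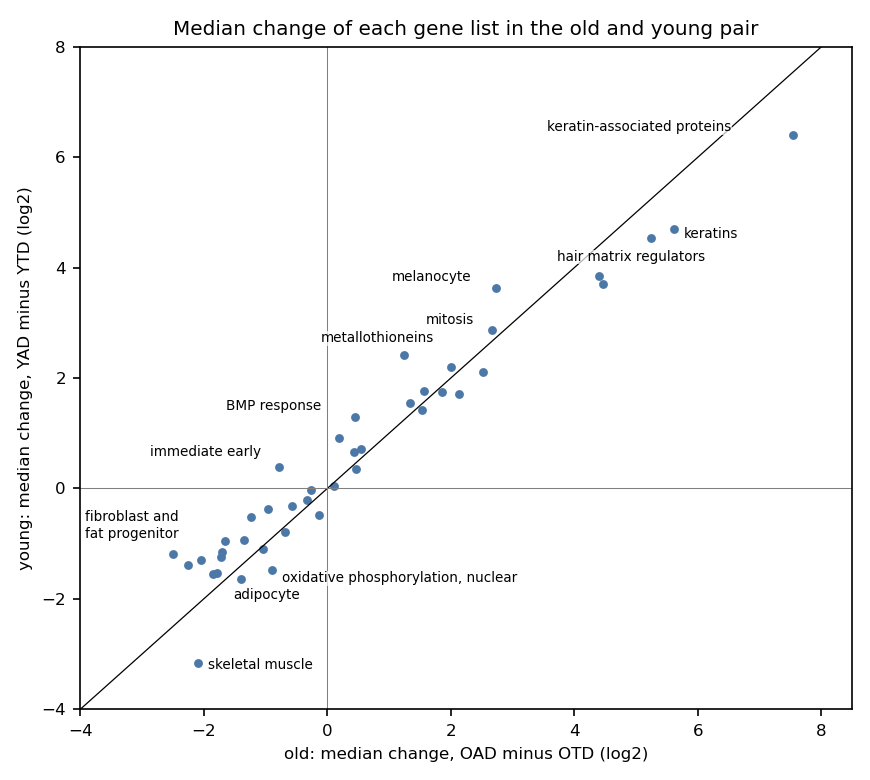
Median change of each list with 4 or more members that passed, in the old pair (horizontal) and the young pair (vertical). Both are log2(FPKM + 1) in anagen minus telogen, as deposited. The line marks equal medians. Keratin lists lie below the line and skeletal muscle far below it, melanocyte genes above it, and immediate early genes have medians of opposite sign (-0.78 and 0.39).

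A set of 199 genes was chosen for a fall in old mice with a young change within 0.5 of 0, both as deposited. The choice itself makes OTD high or OAD low against the young libraries, so their levels are a description. Mmp12 stood at 56.7 FPKM in OTD, 0.795 in OAD, 1.47 in YTD and 0.833 in YAD, the high value being that of OTD. Fosb had the same form (22.5, 0.503, 0.513 and 0.385), as had the neutrophil attractant Cxcl1 (15.1, 0.345, 0.109 and 0.137) and Il6 (6.19, 0.047, 0.225 and 0). Sfrp2 differed from these in that the low value was that of OAD, with 8.76, 1.02, 5.9 and 7.14. After rescaling its young change was 0.68, outside the limit of 0.5. Fgf7 fell in old mice and stood at 3.82 in YTD and 5.35 in YAD. For Mmp12, Fosb, Cxcl1 and Il6 the contrast rests on the high value of 1 library, OTD. In OAD, Cxcl1 and Il6 lay below the value of 3 fragments (0.433 and 0.198). The study, citing quantitative PCR in other mice, states that CXCL1 was not lowered in anagen, which differs from the Cxcl1 values of these single libraries.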

How the data were processed

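Lower dermal fat tissue of old and young C57BL/6 mice in telogen and depilation-induced anagen was sequenced as RNA, with 4 libraries and 1 per group. The deposited values are FPKM per gene for 22913 genes, made by the authors. Their processing notes name bcl2fastq, TopHat2 and GRCm38, and the counting tool and versions are not given in the sources used here. Of gene lengths, 97.0% are multiples of 3, so they are coding lengths without UTRs. A table of gene names gave a symbol for 21750 of 22166 Ensembl identifiers, and 747 loci had other identifiers. The age and group of each library followed the titles and the design text. Libraries were joined on gene identifier.

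The change was computed with a pseudocount of 1, as deposited and after rescaling to a sum of 1000000. With 1 library per group no test was possible, and the scripts were tested on simulated data. Depth was estimated from the FPKM steps of genes of 2000 to 4000 bases, so its precision is rough, and 3 fragments served as the floor. Python 3.11.15, numpy 2.4.6, pandas 2.3.3 and matplotlib 3.10.9 were used. Promoters came from a RefSeq table of GRCm38.p6.

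The rule for named genes took the 15 largest rises and falls under both scalings, the 3 most abundant and 3 most changed members of each list, all Wnt, BMP, FGF and hedgehog members, the genes named in the study's text and the 5 most abundant genes of each library. Genes named outside this rule were chosen after their values were seen. The genes and lists were chosen with earlier results of these data known. Alternatives covered 5 other scalings, a scaling added after the values were seen, the pseudocount, the minimum and the threshold. A few items are not reported here.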

Additional observations from a re-analysis of the deposited data

Results flagged for a closer look

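Immediate early genes had a median change of -0.781 in the old pair and 0.395 in the young pair, on the log2(FPKM + 1) scale of anagen minus telogen, and were picked out because the medians have opposite signs. The difference was not tested, since each pair has 1 library on each side. In OTD the summed FPKM of the 27 genes was 1616.5, beside 1078 in OAD, 551 in YTD and 866 in YAD, so the highest library was OTD.

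Changes of 1 or more in opposite directions in old and young were seen in 6 of the genes that passed, and this difference was not tested either. The 4 with a symbol were Gm10509, Gm10037, Prr14l and Gm10226. Gm10509 stood at 5.47 FPKM in OTD, 0 in OAD, 0 in YTD and 4.15 in YAD, and its neighbour Gm10226 on chromosome 17 stood at 0, 1.82, 6.99 and 0. Prr14l stood at 13.6, 3.90, 1.16 and 4.63.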

How the results depend on the processing

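The counts of 2854 genes higher and 2759 lower in OAD moved beyond 1.5 times under TPM, which gave 4886 and 1502, and at a threshold of 1.5, which gave 1704 and 1474 since fewer genes reach it. Under the 7 other settings and the scaling added later both counts lay within 1.5 times. The median of all genes shifted by 0.53 under TPM, by 0.102 after rescaling, by 0.152 without the clusters and by -0.153 without only chromosome MT. TPM divides by the summed FPKM of all genes, mitochondrial and keratin genes included, which was 1249613 in OTD and 814616 in OAD. The mapped fragments by which FPKM is scaled include those genes as well. The part of their shares in the shift under TPM was not tested. Of 44 lists, 28 had medians of 1 or more in size, and these 28 kept their sign under every scaling. The medians of BMP ligands and antagonists, collagens, de novo lipogenesis and neutrophil genes changed sign under some. Depth was estimated only, and low FPKM rests on few fragments. No paired analysis was possible because each group holds 1 library, and no replicate could be left out.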
